A study of Mus musculus with 8 samples.

Results

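Resident macrophages of the mouse heart were followed in single-nucleus RNA-seq as the barcodes (1 barcode marks 1 droplet, which may hold 1 nucleus, several, or free RNA alone) rich in F13a1, Mrc1 and Cd163 transcripts. They were chosen among the barcodes with at least 800 nuclear-encoded UMIs (unique molecular identifiers, each counting 1 captured RNA molecule; mitochondrial transcripts left out). The share of a barcode's UMIs taken by a gene set was divided by the share of the same set in its whole library, and this enrichment had to be at least 4 for F13a1+Mrc1+Cd163 with at least 4 UMIs of them, and at least 1.5 for the macrophage genes Csf1r, Adgre1, Cd86, Slc9a9 and Mertk. It could be at most 1 for the cardiomyocyte genes Ryr2 and Ttn, at most 1 for the fibroblast genes Gpc6, Bicc1 and Pdgfra, and at most 4 for the lymphatic endothelial genes Mmrn1, Reln and Prox1. The rule kept 9203 of 167504 barcodes of at least 800 UMIs, out of 169193 deposited.

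The libraries came from whole hearts of 9-week-old male mice, 4 WT and 4 Taz-KO. Taz-KO mice lack Tafazzin (gene symbol Taz), the mitochondrial transacylase whose loss causes Barth syndrome, in a line described elsewhere. No other allele or agent is given for either group, each library came from 1 mouse, and replicate numbers here only name mice. Nuclei were freed by douncing from cryopreserved minced tissue that held all cell types of the heart.

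Resident cardiac macrophages live among cardiomyocytes and maintain themselves in large part without input from blood monocytes. They carry scavenger and recognition receptors such as Mrc1 (the mannose receptor), Cd163 (the haptoglobin-hemoglobin receptor) and Mertk (a receptor for dying cells), and they take up debris and mitochondria that cardiomyocytes expel. Subsets of heart macrophages are told apart by Lyve1, Timd4 and Folr2 (long-lived residents), by MHC class II genes (antigen presentation) and by Ccr2 (the chemokine receptor of monocytes and the macrophages they become).

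The promoters of the 3 genes that defined the population are shown because their products give it its name. They were taken from the RefSeq sequences of GRCm38.p6 as the 250 bases before each annotated start, written 5′ to 3′ on the gene's strand, with capitals marking GAGGAA or its reverse complement TTCCTC, the core bound by the myeloid factor PU.1 (Spi1). F13a1, coagulation factor XIII subunit A, lies on the minus strand (chr13:37050245-37050494), Mrc1 on the plus strand (chr2:14229164-14229413) and Cd163 on the plus strand (chr6:124304401-124304650).
F13a1: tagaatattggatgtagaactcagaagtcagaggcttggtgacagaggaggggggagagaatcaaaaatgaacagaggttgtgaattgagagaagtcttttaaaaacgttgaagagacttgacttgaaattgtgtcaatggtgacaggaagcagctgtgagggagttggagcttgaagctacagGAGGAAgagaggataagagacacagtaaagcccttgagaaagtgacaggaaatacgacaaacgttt
Mrc1: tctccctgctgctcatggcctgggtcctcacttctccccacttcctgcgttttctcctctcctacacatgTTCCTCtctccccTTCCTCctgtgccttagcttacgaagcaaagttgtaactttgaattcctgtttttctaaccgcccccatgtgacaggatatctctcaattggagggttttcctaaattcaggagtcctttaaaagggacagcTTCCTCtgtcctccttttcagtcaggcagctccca
Cd163: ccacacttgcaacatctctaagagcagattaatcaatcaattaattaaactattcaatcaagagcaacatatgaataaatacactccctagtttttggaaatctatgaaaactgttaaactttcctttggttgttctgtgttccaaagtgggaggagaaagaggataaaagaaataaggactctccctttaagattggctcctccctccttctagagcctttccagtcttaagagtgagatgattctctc
The F13a1 window held 1 match, which began 66 bases before the start, and a second annotated F13a1 start had 0 in its own window. Mrc1 held 3 matches, at 180, 167 and 35 bases before the start, and Cd163 held 0. Among all 32851 RefSeq promoters, 23.3% held at least 1 match on either strand, among the 16742 promoters of tested genes 23.0%, and among the 611 promoters of the 497 genes outside the rule whose mean level was at least 4 times higher in resident macrophages than in other barcodes 33.6% (205 promoters). A match of these letters is a description of the sequence and was not linked to binding of any factor.

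Levels are given as CPM, the UMIs of a gene per 1000000 nuclear-encoded UMIs of the summed barcodes of 1 mouse. Other barcodes are the remaining barcodes of at least 800 UMIs, 158301 over all libraries, summed per mouse as well. A ratio to other barcodes divides the mean CPM of members over the 8 mice by that of other barcodes. The rule fixed the following levels, which are given as a description only. F13a1 (chr13:36867178-37050244, GRCm38) stood at 4159, 3106, 4504 and 4712 CPM in WT mice 1 to 4, and at 5662, 4076, 3696 and 5941 CPM in Taz-KO mice 1 to 4. The level was high in every mouse and the genotypes overlapped. Mrc1 ranged from 1705 to 2294 CPM and Cd163 from 300.3 to 801 CPM over the 8 mice. The mean level was 15.8 times that of other barcodes for F13a1, 10.3 times for Mrc1 and 11.6 times for Cd163. Csf1r, the receptor for macrophage colony-stimulating factor, was 5.96 times higher, Mertk 6.72 times, Cd86 (a costimulatory ligand) 8.59 times, Adgre1 (F4/80) 8.75 times and Slc9a9 (an endosomal sodium-proton exchanger) 9.67 times. The genes that the rule limited lay below other barcodes, from 0.226 times for Ryr2 to 0.688 times for Mmrn1.

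The threshold ran through a continuous range of values. Barcodes with a target enrichment of 4 to 5, just inside it, numbered 163, 155, 191 and 211 in WT mice 1 to 4 and 7, 405, 357 and 28 in Taz-KO mice 1 to 4. Barcodes that met every other limit with an enrichment of 3 to 4, just outside, numbered 171, 197, 189 and 256 in WT and 30, 468, 445 and 25 in Taz-KO. The median member carried 17 to 54.5 UMIs of F13a1, Mrc1 and Cd163, depending on the mouse, and 8 members, all in Taz-KO mouse 4, had exactly 4.

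Macrophage markers that the rule did not use were high as well. All 18 macrophage identity genes (among them Ptprc, Fcgr1, Cd68, C1qa and Tyrobp) had at least 2 times their level in other barcodes, and their summed level was 8128 to 10320 CPM in WT and 7889 to 11140 CPM in Taz-KO mice, 5.74 times that of other barcodes. Timd4, a phosphatidylserine receptor of long-lived resident macrophages, was measured at 80.0, 102, 104 and 119.6 CPM in WT and at 118, 69.1, 73.6 and 102 CPM in Taz-KO mice, 9.65 times other barcodes. Its levels overlapped between genotypes. Lyve1 (a hyaluronan receptor) was 3.14 times, Folr2 (folate receptor beta) 3.58 times, Cbr2 (carbonyl reductase) 4.67 times, Stab1 (a scavenger receptor) 5.99 times and Gas6 (a bridging ligand of Mertk) 2.03 times higher than in other barcodes. These ratios are descriptions, since the cells were selected on their own transcripts.

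The 20 genes outside the rule with the steadiest excess over other barcodes in all 8 mice included receptors, enzymes and channels of macrophages. Vsig4 (the complement receptor CRIg) reached 13.4 times, Ms4a4a (a tetraspan membrane protein) 14.1 times, Lilr4b (an inhibitory immunoglobulin-like receptor) 11.3 times, Siglec1 (CD169, a sialic acid receptor) 10.4 times and Cd84 (a SLAM family receptor) 9.09 times the level in other barcodes. Aoah, an enzyme that inactivates lipopolysaccharide, reached 9.43 times, the potassium channel gene Kcnk13 10.0 times, the orphan receptor gene Gpr160 9.95 times, Arhgap45 8.36 times, Mctp1 (a membrane protein with C2 domains) 11.6 times and Rbpj, the nuclear effector of Notch receptors, 8.63 times. Hsf3, a heat shock factor gene, stood at 15 times the level in other barcodes. Hsf3 (chrX:96306178-96456294), Vsig4 (chrX:96247203-96293438) and F630028O10Rik (chrX:96239926-96243636, 11.5 times) neighbour each other on the X chromosome. The remaining genes of the 20 were Timd4, described above, and 7 predicted or unnamed transcripts (5033421B08Rik, Gm20528, Gm26740, Gm30489, Gm31243, Gm49144 and F630028O10Rik). All but Gm20528 are annotated as antisense, and the part of an overlapping gene in their counts was not tested. Gm30489 (chr13:36963239-36973329, plus strand) lies within the rule gene F13a1 and Gm49144 (chr13:36836366-36885596, plus strand) overlaps its end. Their levels cannot be taken as independent of the rule.

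**Figure D1:**
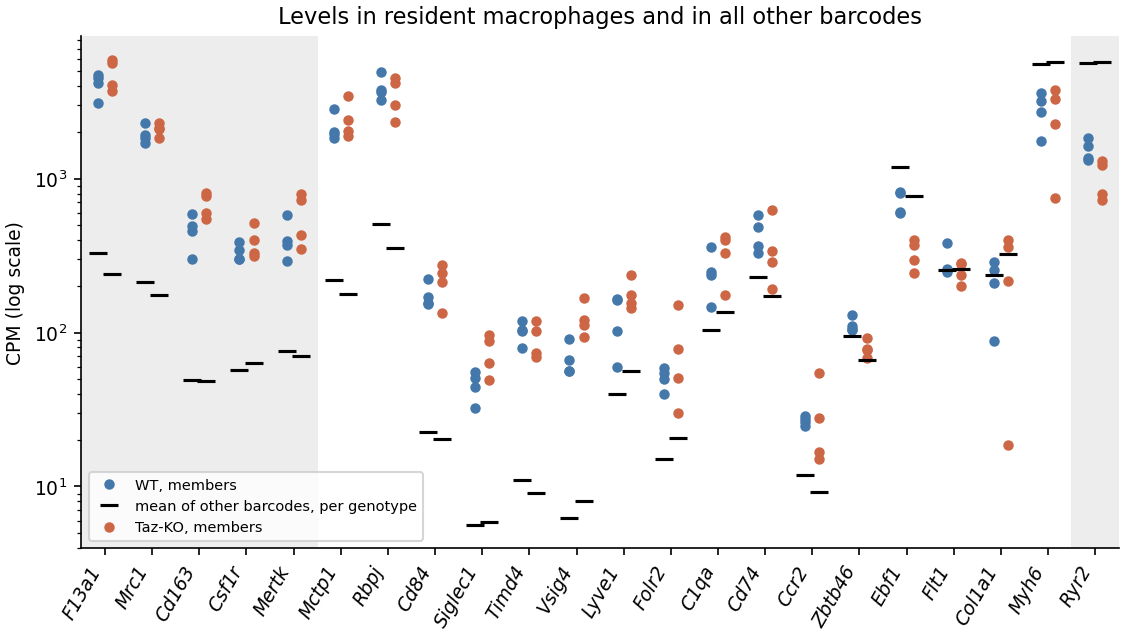
Level in CPM (vertical axis, log scale, not adjusted for gene length) of 22 marker genes in the summed resident macrophages of each mouse, with 1 point per mouse (WT blue, Taz-KO orange) and black ticks for the mean of all other barcodes of each genotype. Grey areas hold genes that the selection used. Timd4 and Vsig4 lie well above the ticks, at 9.65 and 13.4 times, and the cardiomyocyte gene Myh6 lies below them. Zbtb46 lies near its ticks at 1.20 times, but 4 of the 10 listed dendritic cell genes reached at least 2 times.

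Markers of other heart cells were present in members, several of them at levels near those of other barcodes. The summed level in members was 0.549 times that in other barcodes for cardiomyocyte genes outside the rule, 0.781 times for fibroblast genes, 0.908 times for endothelial genes, 1.04 times for lymphocyte genes, 1.05 times for monocyte and recruited-macrophage genes, 1.42 times for lymphatic endothelial genes and 1.49 times for dendritic cell genes. Cardiomyocyte genes summed to 8302 to 22340 CPM in WT and 3230 to 17090 CPM in Taz-KO members, against means of 26910 and 24400 CPM in other barcodes. Fibroblast genes summed to 4042 to 11490 and 1064 to 12800 CPM, endothelial genes to 2795 to 3479 and 1543 to 3269 CPM, and lymphocyte genes to 1215 to 1427 CPM in WT against 847.6 to 987.8 CPM in Taz-KO mice, which did not overlap. In other barcodes the sums of lymphocyte genes also did not overlap between genotypes, at 1276 to 1424 CPM in WT and 794.6 to 927.8 CPM in Taz-KO mice. Both sums include Ebf1, which pericytes and fibroblasts also use and whose levels are given below. Without Ebf1 the lymphocyte sums of members overlapped between genotypes. Monocyte and recruited-macrophage genes summed to 216.0 to 403.7 CPM in WT and 152.3 to 670.1 CPM in Taz-KO members. Dendritic cell genes summed to 159.8 to 206.1 CPM in WT and 122.8 to 160.5 CPM in Taz-KO members. Single genes of these 2 lists stood higher than their sums. At least 2 times the level in other barcodes was reached by 5 of 15 monocyte and recruited-macrophage genes and 4 of 10 dendritic cell genes. Marco, a scavenger receptor of other tissue macrophages, reached at most 0.615 CPM in any mouse.

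Sequencing depth and cell numbers were uneven. Libraries held 19711730 to 272345523 nuclear-encoded UMIs, and Taz-KO mice 1 and 4 stood apart with 3475 and 3899 barcodes of at least 800 UMIs, against 21190 to 36308 in the other 6 mice. Summed members held 219373 UMIs in Taz-KO mouse 1 (30 members), 965434 in Taz-KO mouse 4 (343 members) and 5263898 to 14058176 in the other mice. The median member carried 2430 to 6630.5 UMIs, which was 0.852 to 1.04 times the median of other barcodes except in Taz-KO mouse 1, where it was 2.29 times. The median mitochondrial share of members ranged from 1.76% in Taz-KO mouse 4 to 29.8% in Taz-KO mouse 2. Of 165854 distinct barcode sequences 3295 occurred in several libraries, and 6 of them were members in more than 1. No doublet caller was run. The limits on other cell types took its place, and an alternative left out members rich in endothelial, pericyte or lymphocyte genes, which kept 558 of 868, 511 of 798, 655 of 904 and 1063 of 1441 members in WT and 24 of 30, 2141 of 2954, 1190 of 1865 and 279 of 343 in Taz-KO mice.

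The first comparison asked whether resident macrophages took a different share of the barcodes in Taz-KO libraries. In WT mice 1 to 4 there were 868 of 22593, 798 of 29016, 904 of 21541 and 1441 of 21190 barcodes, or 3.84%, 2.75%, 4.20% and 6.80%. In Taz-KO mice there were 30 of 3475, 2954 of 36308, 1865 of 29482 and 343 of 3899, or 0.863%, 8.14%, 6.33% and 8.80%. Taz-KO mouse 1 was the lowest of all 8, with an exact 95% binomial interval (Clopper-Pearson, for counting error only) of 0.583% to 1.23%, Taz-KO mice 2 and 4 were above every WT mouse, and the groups overlapped. The mean share was 4.40% ± 1.72 (SD, n = 4) in WT hearts and 6.03% ± 3.60 (SD, n = 4) in hearts of Taz-KO mice, a difference of 1.63 percentage points that an exact two-sided permutation test over mice did not separate (p = 0.4286, with 0.02857 the smallest p that 4 against 4 mice can give).

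Without Taz-KO mouse 1, the Taz-KO mean was 7.75% ± 1.28 and the difference 3.36 percentage points (exact permutation p = 0.08571, with the same smallest p of 0.02857 over 35 groupings). When every barcode was thinned at random to 800 UMIs before the rule, with at least 2 UMIs of F13a1, Mrc1 and Cd163 required in place of 4, the means were 3.78% ± 1.60 and 6.06% ± 2.71 and the difference 2.28 points (exact permutation p = 0.2286). Taz-KO mouse 1 then held 86 members of 3475 barcodes (2.47%) and was no longer the lowest, since WT mouse 2 gave 1.99%. The cutoff was looser in this library, however. F13a1, Mrc1 and Cd163 took 0.0585% of its UMIs, against 0.0684% (WT mouse 2) to 0.0919% (WT mouse 3) in the others. At 800 UMIs, 2 UMIs of these genes therefore reached an enrichment of 4 in Taz-KO mouse 1 only, and the other libraries needed more. The part of this in its new rank and in the thinned difference was not tested. Thinned and without Taz-KO mouse 1 the difference was 3.47 points (exact permutation p = 0.08571), and without Taz-KO mouse 4, unthinned, 0.711 points (exact permutation p = 0.7143). Without Taz-KO mouse 2 it was 0.932 points (exact permutation p = 0.6571) and without WT mouse 2 1.08 points (exact permutation p = 0.7143). Without Taz-KO mice 1 and 4 it was 2.83 points (exact permutation p = 0.2000, where 0.06667 was the smallest possible). A share counts barcodes, so a larger number of macrophages and a smaller number of other barcodes cannot be told apart. The deposited counts precede the removal of free RNA and doublets by the authors. After its own filters the study kept far fewer nuclei than the 167504 barcodes counted here. In every mouse but Taz-KO mice 1 and 4, the barcodes also outnumbered the nuclei that the study used per library. The denominators thus hold many barcodes that are not single nuclei, unevenly over the libraries. How many barcodes of each library these are was not tested.

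**Figure D2:**
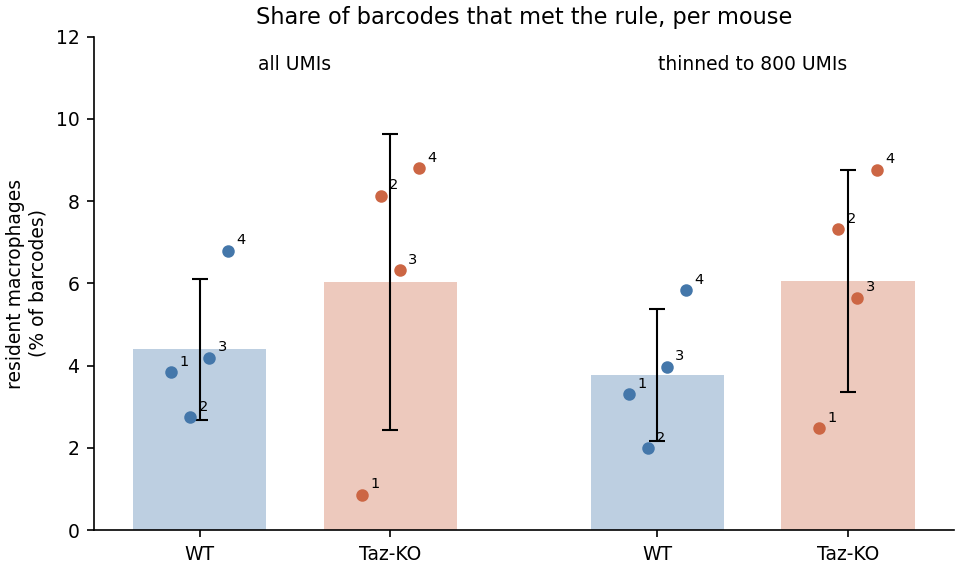
Share of barcodes that were resident macrophages (percent, vertical axis), with 1 numbered point per mouse, bars at the mean of each genotype and error bars of 1 SD (n = 4). The left pair uses all UMIs and the right pair barcodes thinned to 800 UMIs. Taz-KO mouse 1, with 30 members, lies below every other mouse at 0.863% on the left, and the other Taz-KO mice lie at 6.33% to 8.80%.

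Members varied among themselves in the subset genes, and the shares below were taken after each member was thinned to 800 UMIs. Barcodes rich in Ryr2 and Ttn (an enrichment of at least 1.5) were thinned alike and are given for comparison. Free RNA (released from broken cells and caught in any droplet) can place macrophage transcripts in them. They held more UMIs per barcode than members, so that free RNA may take a smaller part of their UMIs. Their shares therefore do not measure the free RNA in members, and they may hold cell cycle transcripts of their own. A UMI of Lyve1 was found in 14.4%, 7.77%, 12.6% and 4.86% of members in WT mice and in 16.7%, 9.28%, 12.7% and 8.75% in Taz-KO mice, against 0.343% to 3.17% of Ryr2- and Ttn-rich barcodes. WT mouse 4 was the lowest and the genotypes overlapped. The means were 9.91% ± 4.38 and 11.8% ± 3.66 (SD, n = 4 each), with an exact permutation p of 0.5429 (0.543 adjusted over the 4 subset shares). The difference of 1.93 points was 0.242 points without WT mouse 4, 0.316 points without Taz-KO mouse 1 and 3.42 points without WT mouse 1, and its direction turned without thinning (46.2% in WT and 43.3% in Taz-KO). Before thinning, with median depths of 2430 to 6630.5 UMIs in members and 7759 to 25475 in Ryr2- and Ttn-rich barcodes, the shares with a Lyve1 UMI were 17.8% to 66.7% in members and 3.12% to 45.5% in the latter.

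A UMI of the MHC class II genes H2-Aa, H2-Ab1, H2-Eb1 or Cd74 was found in 43.2%, 49.5%, 53.5% and 34.5% of thinned members in WT mice, and in 40.0%, 33.2%, 40.2% and 21.9% in Taz-KO mice. Ryr2- and Ttn-rich barcodes gave 17.9%, 23.8%, 23.6% and 5.43% in WT and 12.2%, 9.98%, 15.1% and 1.66% in Taz-KO mice, so that 3 WT mice lay above every Taz-KO mouse in these barcodes too. The part of free RNA in the difference between genotypes was not tested. Among members, Taz-KO mouse 4 was the lowest and WT mouse 3 the highest, and the groups overlapped. The means were 45.2% ± 8.30 in WT and 33.8% ± 8.60 in Taz-KO (SD, n = 4 each), a difference of -11.4 percentage points (exact permutation p = 0.1143, adjusted p = 0.152). Over the mice left out in turn the difference ran from -7.38 points without Taz-KO mouse 4 (exact permutation p = 0.2000) to -14.9 points without WT mouse 4 (exact permutation p = 0.02857, the smallest possible, before adjustment). Before thinning, 37.9% to 100% of members held such a UMI, as did 11.9% to 98.6% of Ryr2- and Ttn-rich barcodes.

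UMIs of 8 genes of S phase and mitosis (Mki67, Top2a, Cenpe, Cenpf, Kif11, Diaph3, Knl1 and Aspm) were found in 6.11%, 5.89%, 4.76% and 7.70% of thinned members in WT mice and in 13.3%, 8.73%, 8.90% and 7.0% in Taz-KO mice, against 2.10% to 4.23% of Ryr2- and Ttn-rich barcodes. Taz-KO mice 1 to 3 lay above every WT mouse and Taz-KO mouse 4 did not. The means were 6.11% ± 1.21 and 9.49% ± 2.70 (SD, n = 4 each), a difference of 3.38 points (exact permutation p = 0.05714, adjusted p = 0.152). It was 2.10 points without Taz-KO mouse 1, where 4 of 30 members held such a UMI (exact permutation p = 0.08571), and 4.21 points without Taz-KO mouse 4 (exact permutation p = 0.02857, the smallest possible, before adjustment). Unthinned shares were 13.7% to 53.3% in members and 13.5% to 48.7% in Ryr2- and Ttn-rich barcodes.

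The chemokine receptor gene Ccr2 was rare. After thinning it gave a UMI in 1.84%, 1.00%, 1.22% and 1.80% of WT members and in 0%, 1.05%, 0.965% and 1.17% of Taz-KO members, where 0 of 30 members in Taz-KO mouse 1 allows a share of up to 10.0%. Ryr2- and Ttn-rich barcodes gave 0% to 0.529%. WT mice 1 and 4 were the highest, Taz-KO mice 2 and 4 lay between WT mice 2 and 3, and Taz-KO mice 1 and 3 lay below every WT mouse. The means were 1.47% ± 0.422 and 0.795% ± 0.537 (SD, n = 4 each; exact permutation p = 0.08571, adjusted p = 0.152). The difference of -0.67 points shrank to -0.41 points without Taz-KO mouse 1 and turned when members were thinned to 1500 UMIs (means of 2.81% in WT mice against 4.73% in Taz-KO mice, with an exact permutation p of 1). The Taz-KO mean at 1500 UMIs rests on Taz-KO mouse 1, with 4 of 30 members (13.3%). Taz-KO mice 2 to 4 gave 2.20%, 1.66% and 1.73%, each below the lowest WT mouse (2.32%). Unthinned shares were 2.04% to 16.7% in members and 0.416% to 8.47% in Ryr2- and Ttn-rich barcodes.

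**Figure D3:**
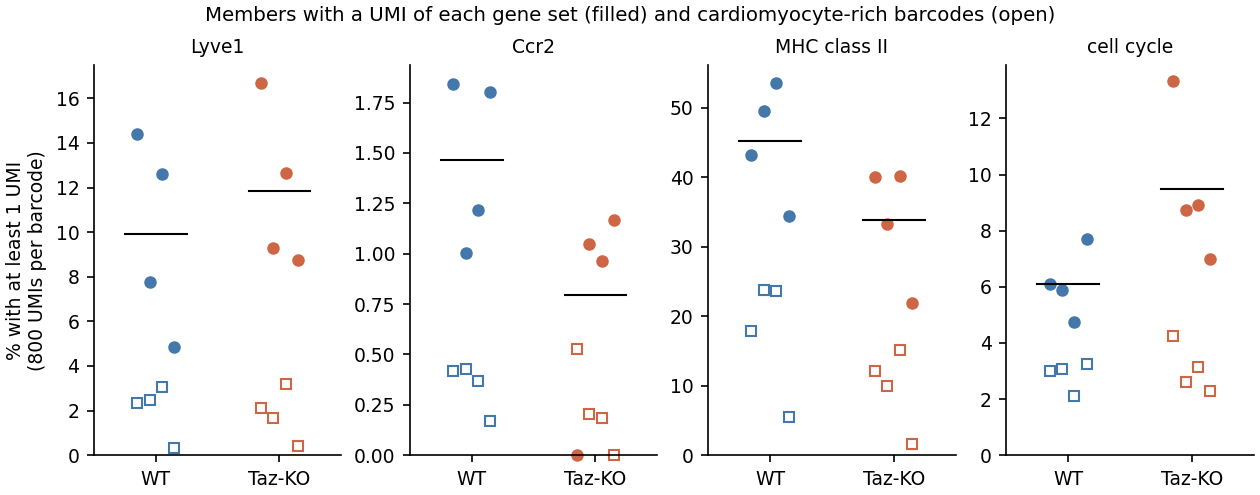
Share of barcodes (percent, vertical axis, with its own scale in each panel) with at least 1 UMI of Lyve1, Ccr2, an MHC class II gene or a cell cycle gene after thinning to 800 UMIs, with 1 point per mouse. Filled points are resident macrophages, lines their genotype means, and open squares Ryr2- and Ttn-rich barcodes of the same library. The filled points lie above the squares of their own mouse except Ccr2 in Taz-KO mouse 1, and MHC class II shares reach from 21.9% to 53.5%.

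Within a mouse, some genes differed between members with and without the subset genes, while the direction between the resident and MHC class II genes varied over mice. Free RNA can place a single UMI in any member, so the split cannot decide whether these subsets oppose each other. Members with a thinned UMI of Lyve1, Timd4 or Folr2 had higher MHC class II genes in 4 of 8 mice (median ratio 0.932). The ratio ran from 0.338 in Taz-KO mouse 4 to 1.10 in Taz-KO mouse 3. Ccr2 in the same members was higher in 3 of 7 mice with at least 20 Ccr2 UMIs. Its ratio ran from 0.187 in Taz-KO mouse 4 to 1.21 in WT mouse 2. Lyve1, Timd4 and Folr2, summed, were higher in members with an MHC class II UMI in 3 of 8 mice (median ratio 0.920). This ratio ran from 0.542 in Taz-KO mouse 4 to 1.15 in Taz-KO mouse 1. Members with a thinned MHC class II UMI had higher Ccr2 than members without one in 7 of 7 mice with at least 20 Ccr2 UMIs, by 1.84 to 7.78 times with a median of 2.34, from means of 15 CPM without and 43.1 CPM with such a UMI. Cx3cr1, the fractalkine receptor, was higher in the same members in 7 of 7 mice with at least 20 of its UMIs, by 1.02 to 1.34 times. Taz-KO mouse 1, below this floor, had 0 Cx3cr1 UMIs in members with and 9 in members without an MHC class II UMI. Members with a UMI of Lyve1, Timd4 or Folr2 had lower Cx3cr1 in 7 of 7 mice above the floor (0.579 to 0.970 times, median 0.752), whereas Taz-KO mouse 1, with 4 and 5 UMIs, had a ratio of 1.41. The same members had higher Gas6 in 8 of 8 mice (1.01 to 2.44 times, median 1.14). They had higher Mctp1 in 8 of 8 mice (1.01 to 1.40 times), but higher Cd163 and higher Siglec1 in only 4 of 8 mice each. These ratios compare barcodes of 1 library and describe how the genes were shared among members, with no test.

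The targeted gene was examined next. Taz (chrX:74281912-74290151) stood at 33.2, 39.8, 36.7 and 38.5 CPM in WT members and at 31.9, 24.1, 21.2 and 22.8 CPM in Taz-KO members. Every Taz-KO mouse was below every WT mouse, but transcripts of the gene were still counted. The log2 fold change was -0.70 ± 0.18 (SE; edgeR quasi-likelihood test on counts summed per mouse, Benjamini-Hochberg adjusted p = 0.132), and in other barcodes -0.67 (adjusted p = 0.0423). Of 11 listed genes of cardiolipin synthesis and remodelling, Taz included, 0 passed, where 0.538% of all genes tested did. At that share a list this short gives no result about its genes. Its median log2 fold change was 0.06.

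Few genes differed between Taz-KO and WT resident macrophages. Of 14876 genes tested by edgeR on sums per mouse, 80 passed an adjusted p under 0.05 (0.538%), 34 of them higher (0.229%) and 46 lower (0.309%) in Taz-KO, and 1457 (9.79%) had an unadjusted p under 0.05. One called gene, Gpc6, belongs to the genes used to choose the cells and is not read as a result. In other barcodes 1322 of 22345 genes passed (5.92%). Their sums were far deeper and let more genes be tested, so these counts do not compare how much each part changed. The calls depended on single libraries and on the treatment of free RNA. Leaving out Taz-KO mouse 1, 2, 3 or 4 gave 37, 6, 10 and 220 calls, leaving out WT mouse 1 or 2 gave 30 and 40, and leaving out Taz-KO mice 1 and 4 together gave 150. DESeq2 called 242 of 17342 genes (1.4%), and the study's thresholds (adjusted p under 0.001 and an absolute log2 fold change over 0.58) left 1, Vmn2r3 (0.00672%). Subtraction of 0.2 of the member UMIs, with the profile of the 10% of barcodes with the fewest UMIs, left 0 of 14277 genes called (1022 at an unadjusted p under 0.05), and 18 were called without members rich in endothelial, pericyte or lymphocyte genes. The barcodes of that profile were not all empty droplets. They held up to 588 UMIs in Taz-KO mouse 4 and up to 4403 in WT mouse 2. Members among them numbered 0 in Taz-KO mouse 4, 36 in WT mouse 2 and 154 in Taz-KO mouse 3. The profile thus differed in kind between mice, and in some it held macrophage transcripts.

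Genes of the integrated stress response, the program by which ATF4 answers amino acid shortage and mitochondrial stress, were among the higher genes. Their list was chosen with earlier results of these data known, so its calls are not independent evidence of a change in the program. Of 20 tested genes on the list 6 passed, all higher (Gdf15, Asns, Chac1, Phgdh, Psat1 and Sesn2), beside 0.538% of all genes tested. An unadjusted edgeR p under 0.05 was found for 14, beside 9.79% of all genes tested. A positive fold change was found for 18, and the median log2 fold change was 1.28 against 0.01 over all genes tested. The summed level of the list was 262.8 to 375.8 CPM in WT members and 326.3 to 971.9 CPM in Taz-KO members, and 419.3 and 1028 CPM on average in other barcodes. Taz-KO mouse 4 was the lowest Taz-KO mouse for each of the 6 genes.

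Gdf15, a stress hormone of the TGF-beta family (chr8:70629393-70632456), was counted at 0.659, 0.769, 1.52 and 0.323 CPM in WT members, from 5, 5, 8 and 2 UMIs. In Taz-KO members it was counted at 77.5, 58.5, 77.2 and 6.21 CPM, from 17, 823, 451 and 6 UMIs. Every Taz-KO mouse was above every WT mouse, with Taz-KO mouse 4 well below the other 3. The log2 fold change was 5.99 ± 0.69 (SE; edgeR adjusted p = 0.00812). Other barcodes moved by 5.75, from 0.892 to 51.4 CPM, and the barcodes with the fewest UMIs went from 1.27 to 100.4 CPM. After the subtraction of free RNA, Gdf15 no longer passed the filter on low counts, so it was not tested there. The filter asks for enough counts in as many mice as 1 genotype holds, and Taz-KO mouse 4 began with 6 UMIs. Failing it does not show that the difference was lost in the other Taz-KO mice.

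Asns, asparagine synthetase, rose from 1.19, 2.0, 0.95 and 0.970 CPM in WT to 18.2, 40.8, 45.7 and 4.14 CPM in Taz-KO members (log2 fold change 4.53 ± 0.58, edgeR adjusted p = 0.0100), and by 4.26 in other barcodes. Chac1, a glutathione-degrading enzyme, rose from 0.395, 1.08, 1.33 and 0.485 CPM to 9.12, 9.39, 26.5 and 3.11 CPM (log2 fold change 4.04 ± 0.58, edgeR adjusted p = 0.0173), and by 4.15 in other barcodes. Sesn2, an amino acid sensor upstream of mTORC1, rose from 3.42, 4.62, 4.56 and 4.20 CPM to 18.2, 14.4, 13.5 and 8.29 CPM (log2 fold change 1.60 ± 0.26, edgeR adjusted p = 0.0235), against 2.49 in other barcodes. None of these genes overlapped between genotypes. Phgdh and Psat1, the first enzymes of serine synthesis, had log2 fold changes of 3.11 and 1.98 (adjusted p = 0.0348 and 0.0488), with Taz-KO mouse 4 inside the WT range. Ddit3 (CHOP) had 17.2, 18.6, 14.2 and 9.86 CPM in WT and 50.1, 50.0, 55.6 and 20.7 CPM in Taz-KO, with an adjusted p of 0.0515, and Atf4 had a log2 fold change of 1.18 and an adjusted p of 0.368.

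Several further higher genes are not known for a role in macrophages. Vmn2r3, a vomeronasal receptor gene (chr3:64257215-64289709), gave 2, 1, 1 and 0 UMIs in WT members and 14, 789, 336 and 17 UMIs in Taz-KO members, or 63.8, 56.1, 57.5 and 17.6 CPM in the latter. It was near absent from all WT mice, present in all Taz-KO mice, and had the lowest p of all genes (log2 fold change 8.03 ± 0.54, edgeR adjusted p = 0.000158). In other barcodes it went from 0.197 to 144 CPM. Tfcp2l1, a transcription factor gene, had a log2 fold change of 3.77 (adjusted p = 0.00174), Tex22, a testis-expressed gene, of 4.22 (adjusted p = 0.00457), and Bc1, a noncoding RNA of neurons, of 3.06 (adjusted p = 0.0348). Atcay, a neuronal gene, had a log2 fold change of 2.97 in members (adjusted p = 0.0100) and 1.97 in other barcodes.

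Among the lower genes were transcripts of heart muscle. Strit1, which encodes the calcium pump activator DWORF (chr3:63481112-63483879), fell from 7.38, 16.8, 13.7 and 3.39 CPM in WT to 0, 0.569, 0.171 and 1.04 CPM in Taz-KO members (log2 fold change -4.43 ± 0.70, edgeR adjusted p = 0.0235), against -5.17 in other barcodes. Rpl3l, the ribosomal protein paralog of striated muscle, fell from 45.7, 64.0, 53.8 and 32.6 CPM to 4.56, 11, 12.3 and 3.11 CPM (log2 fold change -2.37 ± 0.33, edgeR adjusted p = 0.0118), against -2.82 in other barcodes. For both genes every Taz-KO mouse was below every WT mouse, but the values of Taz-KO mice 1 and 4 rest on few UMIs. Their summed members held only 219373 and 965434 UMIs. At this depth the 0 for Strit1 in Taz-KO mouse 1 allows a level inside the WT range. Trabd2b, a Wnt-cleaving metalloprotease, fell from 104, 87.4, 89.1 and 136 CPM to 13.7, 24.9, 35.4 and 18.6 CPM (log2 fold change -2.07, edgeR adjusted p = 0.00755), against -1.35 in other barcodes.

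Rora, a nuclear receptor that acts in the circadian clock, fell from 1273, 866, 589.9 and 774 CPM to 259.8, 366, 387 and 300.4 CPM (log2 fold change -1.46 ± 0.26, edgeR adjusted p = 0.0379). Its groups did not overlap, and its level in members was 0.345 times that in other barcodes. Rora was the 1 call among 19 tested clock genes, beside 0.538% of all genes tested. Gm26862, a noncoding transcript that overlaps another gene, had a log2 fold change of -3.06 (adjusted p = 0.00457), and Ogdhl, an oxoglutarate dehydrogenase-like enzyme gene, of -1.79 (adjusted p = 0.0345). The other named lower genes were the predicted transcripts Gm20757, Gm24474, Gm35041 and Gm36372, with log2 fold changes of -3.01, -2.85, -2.24 and -2.07.

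The called genes were mostly genes that resident macrophages held at a lower level than the rest of the heart. Of the 80, 74 had a lower mean level in members than in other barcodes, 56 of these in all 8 mice, and 0 reached 2 times the level in other barcodes. Their median ratio to other barcodes was 0.355, against 1.05 over all tested genes. The cardiomyocyte list made up 1.44%, 2.23%, 1.92% and 0.830% of member UMIs in WT mice and 1.13%, 1.69%, 1.71% and 0.323% in Taz-KO mice, 17.6% to 69.3% of its share in the barcodes with the fewest UMIs. No call remained after the subtraction of 0.2 given above, and 2 lower genes (Itgbl1 and Zfpm2, neither among the 80 and named after their values were seen) were called after subtraction of a share set per mouse by the cardiomyocyte list. The part of free RNA in each call was not tested further.

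**Figure D4:**
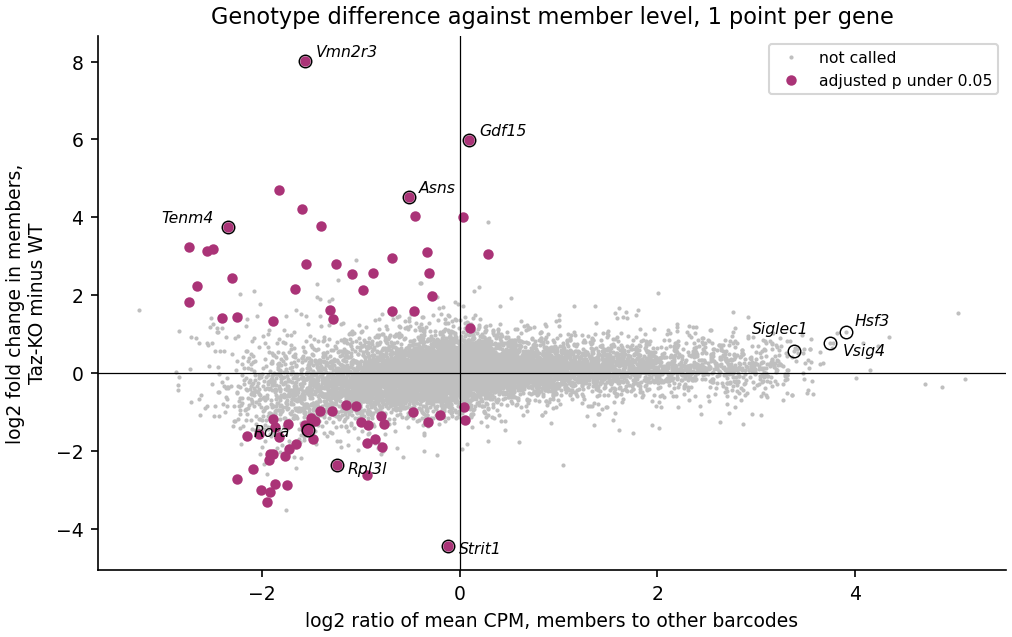
Log2 fold change between Taz-KO and WT resident macrophages (vertical axis) against the log2 ratio of the mean level in resident macrophages to that in other barcodes (horizontal axis), 1 point per tested gene outside the rule. Of the 80 genes past an adjusted p of 0.05, all but the rule gene Gpc6 are shown, coloured, and most lie left of 0 on the horizontal axis. Genes far to the right, such as Hsf3 (1.05) and Vsig4 (0.77), are grey, since none passed.

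Genes typical of the population gave no call. Of 1780 tested genes outside the rule with at least 2 times the level of other barcodes, 0 passed by edgeR, 151 had an unadjusted p under 0.05, the lowest adjusted p was 0.0632, and the median log2 fold change was 0.13 with 1204 values above 0. Over all 14876 tested genes 0.538% passed, 9.79% had an unadjusted p under 0.05, and 7567 values lay above 0. The shares at an unadjusted p under 0.05 were thus near that of all genes. Of the 651 genes at 4 times or more, 0 passed, 71 had an unadjusted p under 0.05, and 31 were higher and 4 lower in Taz-KO without overlap between the groups, where 2.34% and 4.28% of all tested genes did so. In simulated counts of the same depth, edgeR recovered 21.5% of 2-fold and 95.5% of 4-fold changes, so that changes of 2-fold and less were largely below the reach of the test.

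Hsf3 stood at 35.4, 32.5, 60.2 and 37.5 CPM in WT and 100.3, 85.7, 76.9 and 97.4 CPM in Taz-KO members (log2 fold change 1.05 ± 0.22, edgeR adjusted p = 0.0671), with every Taz-KO mouse above every WT mouse. Vsig4 stood at 56.5, 66.2, 91.0 and 55.9 CPM in WT and 169, 112, 93.6 and 120.2 CPM in Taz-KO members, again without overlap (log2 fold change 0.77 ± 0.22, edgeR adjusted p = 0.182). Siglec1 had a log2 fold change of 0.58 (adjusted p = 0.476), Lyve1 of 0.45 (0.773), C1qb of 0.50 (0.481) and Timd4 of -0.27 (0.848). Clec10a, a galactose-type lectin, stood at 28.9, 39.8, 44.3 and 40.7 CPM in WT and 27.4, 20.5, 34.8 and 26.9 CPM in Taz-KO members (log2 fold change -0.55, adjusted p = 0.393). Ccr2 had a log2 fold change of -0.35 (adjusted p = 0.891) and Zbtb46, a transcription factor of dendritic cells, of -0.57 (adjusted p = 0.211) without overlap, at 1.20 times its level in other barcodes.

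The remaining gene lists are each given by its tested genes and median log2 fold change, to be read beside the 0.538% of all genes called and the median of 0.01. The macrophage lists with 0 calls were macrophage identity (18 genes, median 0.33, 16 positive), resident cardiac macrophage (14, 0.20), monocyte and recruited macrophage (11, 0.01) and dendritic cell (7, -0.16). The 7 genes of antigen presentation by MHC class II had 0 calls and a median of -0.33 with none positive, and H2-Aa, at 139.7, 178, 198 and 124 CPM in WT and 255, 100.4, 114 and 93.2 CPM in Taz-KO, was highest in Taz-KO mouse 1. Complement and opsonin receptors (14 genes) had 0 calls and a median of 0.38. C2, an early protease of the complement cascade, had 6.59, 5.38, 5.13 and 7.11 CPM in WT and 36.5, 12.7, 19.3 and 8.29 CPM in Taz-KO, without overlap and with an adjusted p of 0.108.

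Receptor and metabolic lists gave 0 calls as well: scavenger receptors (13 genes, median -0.03), uptake of dying cells (17, 0.07), lysosome (27, 0.20), lipid handling (20, -0.02) and iron and heme handling (13, -0.06). Chemokines and cytokines (16, 0.06), toll-like receptors and NF-kappaB (19, 0.16), myeloid transcription factors (20, -0.03) and the interferon response (19, 0.21) gave 0 calls. Oas1a, an antiviral sensor gene, stood at 17.8, 15.1, 23.0 and 13.9 CPM in WT and 31.9, 30.7, 23.8 and 40.4 CPM in Taz-KO without overlap (adjusted p = 0.227). Fatty acid oxidation (17, -0.43, none positive), the nuclear-encoded respiratory chain (27, -0.19), glycolysis (19, 0.18), heat shock and folding (19, 0.49) and cytosolic ribosomal proteins (33, 0.52, all positive) gave 0 calls. The 19 cell cycle genes gave 0 calls, a median of 0.49 and a positive value each. Mki67, a mark of cycling nuclei, stood at 23.7, 24.9, 24.1 and 30.6 CPM in WT and 196, 39.5, 36.0 and 42.5 CPM in Taz-KO (log2 fold change 1.19, adjusted p = 0.432), with Taz-KO mouse 1 far above the rest from 43 UMIs.

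Growth factors and matrix remodelling (20 genes, median -0.10) held 1 call, Gdf15, and the circadian clock list had a median of -0.03. The list of macrophage genes that the study drew up from these same samples, which is not independent evidence of its direction, had 2 higher of 33 (Gdf15 and Tenm4) and a median of 0.53. Markers of other cells gave 0 calls for cardiomyocytes (20, -0.43, none positive), fibroblasts (20, 0.14), endothelial cells (17, -0.31), lymphatic endothelial cells (7, 0.06), lymphocytes (11, -0.64, none positive) and mesothelial, adipocyte and glial cells (9, -0.04). Markers of pericytes and smooth muscle (12, -0.45) held 1 lower call, in a gene not reported here, and 4 of them had an unadjusted p under 0.05. Ebf1, a transcription factor of B cells that pericytes and fibroblasts also use, had the lowest adjusted p of the lymphocyte list at 0.0505, with 803, 813, 601 and 604 CPM in WT and 296, 402, 372 and 244 CPM in Taz-KO.

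The last comparison asked where the difference between genotypes in resident macrophages was itself different from that in other barcodes. It used 1 edgeR model of both, with the mouse as a block. The log2 fold changes given for members and for other barcodes come from separate fits without this block. The difference is the estimate of the model of both, with its own scaling, and need not equal the subtraction of those values. Of 18226 genes 43 passed (0.236%), 40 with a smaller or more negative log2 fold change in members (0.219%) and 3 with a larger one (0.0165%), and 1819 (9.98%) had an unadjusted p under 0.05. Leaving out Taz-KO mouse 2 gave 4 genes, WT mouse 1, 2, 3 or 4 gave 14, 10, 17 and 20, Taz-KO mice 1 and 4 together gave 117, and scaling by relative log expression gave 26. Of the 80 genes called between genotypes in members, 5 passed here: Tenm4, Gm15414, Soat2, Ptprt and Grm7. Gm15414 is annotated antisense within Tenm4, and the part of Tenm4 in its counts was not tested.

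Tenm4, a teneurin adhesion gene (chr7:96171246-96911093), was at 20.8, 7.38, 7.41 and 6.95 CPM in WT and 146, 151, 159.9 and 146 CPM in Taz-KO members. WT mouse 1 was the highest WT mouse and every Taz-KO mouse was above it. The log2 fold change was 3.76 ± 0.36 in members (edgeR adjusted p = 0.00191) and 6.17 in other barcodes, which went from 11 to 809 CPM. The difference in the model of both was -2.38 (edgeR adjusted p = 0.0113). Ptprt, a receptor tyrosine phosphatase gene, had a log2 fold change of 3.19 in members and 4.82 in other barcodes (difference -1.72, adjusted p = 0.0476).

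Kctd16, an auxiliary subunit gene of GABA-B receptors, stood at 36.6, 39.8, 34.6 and 46.4 CPM in WT and at 109, 79.6, 52.7 and 64.2 CPM in Taz-KO members, without overlap. Its log2 fold change was 0.83 in members (edgeR adjusted p = 0.151) and 2.75 in other barcodes, a difference of -2.06 (adjusted p = 0.00142). Ern1, which encodes the endoplasmic reticulum stress sensor IRE1, stood at 87.3, 86.3, 88.5 and 112 CPM in WT and at 150.4, 104, 91.1 and 129.5 CPM in Taz-KO members, with overlap. Its log2 fold change was 0.25 in members and 1.56 in other barcodes (difference -1.38, adjusted p = 0.00537). Maoa, monoamine oxidase A, had log2 fold changes of -0.23 and 1.13 (difference -1.39, adjusted p = 0.00804). Taco1, a translational activator of mitochondrial Cox1, had 33.7, 24.5, 20.5 and 169.6 CPM in WT and 22.8, 25.7, 36.3 and 219.6 CPM in Taz-KO members, with WT mouse 4 and Taz-KO mouse 4 far above the rest (difference -1.14, adjusted p = 0.00727). Gm47371, an antisense transcript, had a difference of -1.14 (edgeR adjusted p = 0.0113), and the part of its partner gene in its counts was not tested.

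The 3 genes with a larger log2 fold change in members were BE692007, 0610040J01Rik and Med12l. This direction depended on single libraries. It held 0 genes without WT mouse 1 or WT mouse 2, 1 without WT mouse 4 or Taz-KO mouse 2, and 5 without Taz-KO mouse 4. BE692007, an uncharacterised transcript (chr19:11470166-11484578) at 5.07 times its level in other barcodes, stood at 27.7, 18.6, 29.1 and 26.8 CPM in WT and 50.1, 49.3, 47.8 and 55.9 CPM in Taz-KO members. All Taz-KO mice were above all WT mice. Its log2 fold change was 0.94 in members (edgeR adjusted p = 0.0654) and -0.49 in other barcodes. The difference in the model of both was 1.17 (edgeR adjusted p = 0.0212). 0610040J01Rik, at 3.90 times other barcodes, had log2 fold changes of 0.44 and -0.77 (difference 1.01, adjusted p = 0.0160). Med12l, a Mediator subunit paralog, stood at 65.1, 61.5, 76.2 and 76.6 CPM in WT and 95.7, 63.5, 86.3 and 99.4 CPM in Taz-KO members, with log2 fold changes of 0.22 in members and -1.35 in other barcodes (difference 1.32, adjusted p = 0.0212).

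**Figure D5:**
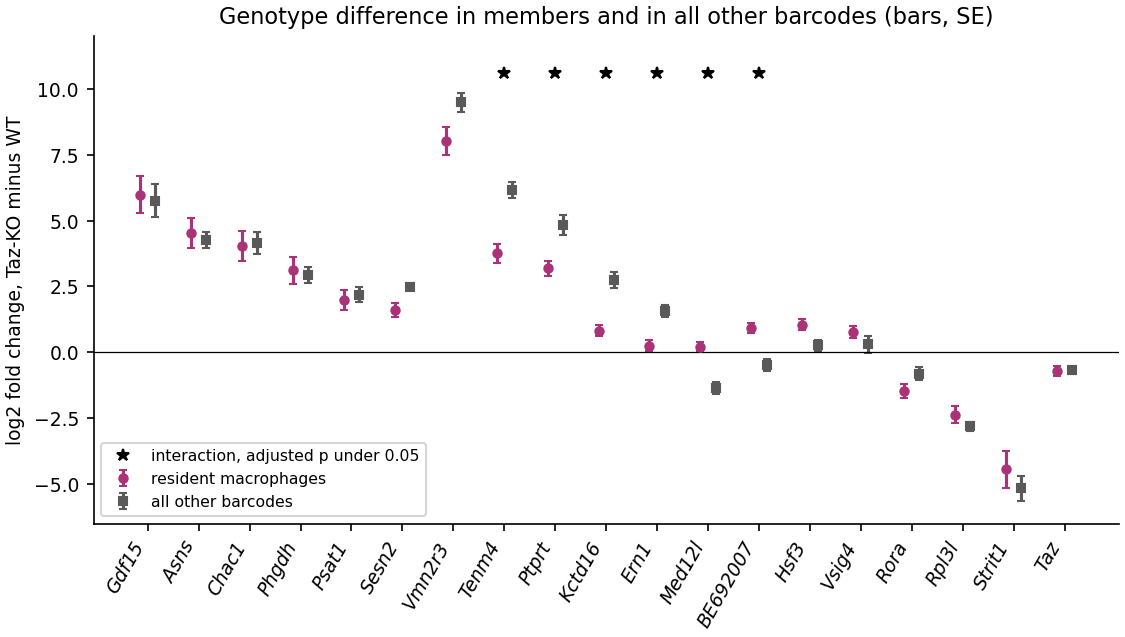
Log2 fold change between Taz-KO and WT (vertical axis) in resident macrophages (circles) and in all other barcodes (squares) for named genes, with bars of 1 SE. Stars mark genes whose 2 values differed at an adjusted p under 0.05 in the model of both, such as Tenm4 (3.76 against 6.17) and Kctd16 (0.83 against 2.75), while Gdf15 (5.99 against 5.75) carries none.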

How the data were processed

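Single-nucleus RNA-seq libraries (10x 3′ v3.1) of whole hearts from 4 WT and 4 Taz-KO mice were analysed. What the authors deposited are Cell Ranger 6.0.1 count matrices, that is unnormalized UMI counts (mm10, the GRCm38 build, with intronic reads per the study's methods) from before they removed free RNA and doublets. Groups came from the genotype labels, and no batch is labelled. Members and gene lists were chosen with earlier results of these data known. Counts of members, and of all other barcodes of at least 800 nuclear-encoded UMIs, were summed per mouse, without mitochondrial genes, and tested with edgeR 4.0.16 (R 4.3.3; TMM, filterByExpr by genotype, robust quasi-likelihood fit, Benjamini-Hochberg). The study's test over nuclei was replaced, because nuclei of 1 mouse are not replicates. The standard error is the absolute log2 fold change over the root of F, and fold changes carry edgeR's prior count. Shares were compared by exact two-sided permutation over mice (70 groupings of 8 mice), with intervals and floors that cover counting error only. Precision follows depth, which was lowest in Taz-KO mice 1 and 4. Named genes were the 16 rule genes, Taz, up to 10 called genes per direction with the largest fold change (no overlap, mean of at least 5 CPM), 5 per direction by interaction p, the 20 with the highest lowest-mouse ratio to other barcodes, and members of the lists. Others, such as Phgdh, Psat1, Soat2, Grm7 and Gm15414, were chosen after their values were seen. Alternatives included DESeq2 1.42.0, relative log expression, other thresholds, subtraction of free RNA and leaving out mice. The test was checked on simulated data. Gene positions are from GENCODE on GRCm38. Some named genes are not reported here.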

Additional observations from a re-analysis of the deposited data

Results flagged for a closer look

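Of 120 groups of 4 mice examined for a sample far from the other 3 (Dixon's criterion, by which chance alone gives about 1 in 20), 8 had one. In resident macrophages of Taz-KO mouse 1, which rest on 30 barcodes, H2-Aa (255 CPM), Mki67 (196 CPM) and Top2a (91.2 CPM) each stood above the other Taz-KO mice. Taco1 was far above the other mice of its genotype in WT mouse 4 (169.6 CPM) and in Taz-KO mouse 4 (219.6 CPM). Among WT mice, Ern1 was highest in WT mouse 4 (112 CPM) and Tenm4 in WT mouse 1 (20.8 CPM). Vmn2r3 was lowest among Taz-KO mice in Taz-KO mouse 4 (17.6 CPM). The cause of these values was not tested.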

How the results depend on the processing

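The direction of the difference in the share of resident macrophages held under every alternative tried, with none past the threshold, and over the mice left out in turn it ranged from 0.711 to 3.36 percentage points. For the subset shares these ranges were 0.242 to 3.42 (Lyve1), -0.826 to -0.406 (Ccr2), -14.9 to -7.38 (MHC class II) and 2.10 to 4.21 (cell cycle) points. The difference changed sign for Lyve1 without thinning (-2.92 points) and for Ccr2 when thinned to 1500 UMIs (1.92 points, resting on Taz-KO mouse 1). The 80 genes called between genotypes became 242 with DESeq2 (all 80 among them), 211 with no filter on low counts, 44 with shares averaged over libraries, 18 without likely doublets, 7 at an enrichment of at least 8, 1 under the study's thresholds (Vmn2r3), 0 and 2 under the 2 subtractions of free RNA, 150 without Taz-KO mice 1 and 4, and 6 to 220 over the mice left out in turn. The 43 genes of the model of both became 84 with no filter, 26 with relative log expression, 117 without Taz-KO mice 1 and 4, and 4 to 52 over the mice left out in turn. Of 992 alternatives for 54 named genes, 845 kept their direction and side of the threshold, 113 lost the call, 27 gained one and 7 changed sign. Mthfd2 (-2.73), Kctd16 (-0.0156) and Ern1 (-0.0527) changed sign under the subtraction of a share of free RNA per mouse, and Taco1 without Taz-KO mice 1 and 4 (-1.09) and over the mice left out in turn (from -1.12 without Taz-KO mouse 4 to 1.52 without WT mouse 4, and just below 0 without WT mouse 2 or 3). The cause was not tested. No paired analysis was possible because the labels give no replicate numbers shared by WT and Taz-KO mice and do not say that an animal number marks a litter or batch. The block by mouse in the model of both joins members and other barcodes of 1 mouse, not mice of different genotype. In simulated counts at these depths, 21.5% of 2-fold changes were recovered.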
